A study of Mus musculus with 68 samples.

Results

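The comparison is of sorted mouse brain endothelial cells at the acute stage after stroke with endothelial cells of the stroke control group. Its members are the 3 libraries named stroke acute and the 3 named stroke control, 6 of the 68 libraries of a series on endothelial cells in health and in disease models of the central nervous system. Stroke was made by occlusion of the middle cerebral artery (MCAO), the vessel that supplies much of the lateral forebrain. All 6 libraries hold total RNA of cells purified by fluorescence-activated sorting into Trizol, extracted with phenol and chloroform and made into libraries with 2 NuGEN kits, Ovation RNA-seq V2 and Ovation Ultralow. Strain, genotype, sex, age, the hours between occlusion and sampling, the hemisphere taken, the markers used for the sort and what was done to the control animals are not stated for these samples. The labels do not say whether replicates are separate animals, so the spread behind each p-value is that of these libraries and may be technical.

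Endothelial cells of the brain form the blood-brain barrier: they seal their contacts with tight junctions, carry nutrients with dedicated transporters, keep vesicle traffic low and hold few adhesion molecules for leukocytes. When blood flow stops, the endothelium of the territory is known to meet low oxygen, altered flow and cytokines from the surrounding tissue, and such endothelium can take up leukocyte capture, acute-phase secretion and vessel sprouting. Venules are the vessels where leukocytes leave the blood, arteries and capillaries carry different transporters and signals, and sprouts are led by tip cells.

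The values are CPM, reads scaled to a library total of 1000000. Depth was 25.5 to 34.8 M reads in the 6 libraries, with a read on 18850 to 20766 genes, so that 3 reads stood for 0.0863 to 0.118 CPM. The mitochondrial ribosomal RNA genes mt-Rnr1 and mt-Rnr2 together took 24.5, 31.0 and 23.6% of the reads in control libraries 1 to 3 and 37.5, 35.8 and 38.1% in acute libraries 1 to 3. The groups did not overlap in this share, with an exact two-sided permutation p of 0.1, the smallest that 3 against 3 libraries allow. Control library 2 was nearest to the acute libraries in this share and in its profile, with Pearson correlations across genes of 0.984, 0.986 and 0.980 to acute libraries 1 to 3. Acute library 3 was the least like its own group, at 0.977 to acute library 1 and 0.980 to acute library 2, and genes are not independent replicates. A larger mitochondrial share lowers the CPM of all other genes, so results were also computed after both genes were left out and the libraries rescaled; those values are given for the main genes and lists, and where the call of a named gene changed. That rescaling moved the median log2 fold change (acute minus control) of all genes from -0.11 to 0.09, a shift of 0.196.

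With log2(CPM + 1) tested by limma over all 12 stroke libraries, 58 of 13474 genes (0.43% of those tested) rose at the acute stage and 134 (0.995%) fell at an adjusted p under 0.05. Without the mitochondrial rRNA genes the counts were 312 (2.17%) and 95 (0.66%) of 14384, and edgeR on whole reads recovered from the CPM values gave 126 (0.935%) and 145 (1.08%). The share of calls that were rises was 30.2% with the deposited CPM, 56.3% after quantile normalization, 46.5% in edgeR and 76.7% without the rRNA genes, so the balance of rises and falls depends on the scaling. All 58 and all 134 called genes kept their sign under those scalings, and without the rRNA genes 58 and 85 of them were still called. A change of sign was unlikely from the start, since the smallest called rise was 0.518 and the smallest called fall -0.463, beyond the shift of 0.196. Values nearer 0 did change sign: the median of the hypoxia and glycolysis list went from -0.12 to 0.06 without the rRNA genes. In all 192 genes (1.42%) the acute and control libraries did not overlap, which held for 27.1% of all genes tested. Among called genes the rises were the larger changes, with a median log2 fold change of 1.12 and a highest value of 3.71. The falls had a median of -0.77 and a lowest value of -1.42. A gene with a larger SE needs a larger change to be called, and the SE was 0.44 for Sele, a rise, and 0.10 for Gas6, a fall. The contrast therefore does not extend to genes that were not called.

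**Figure D1:**
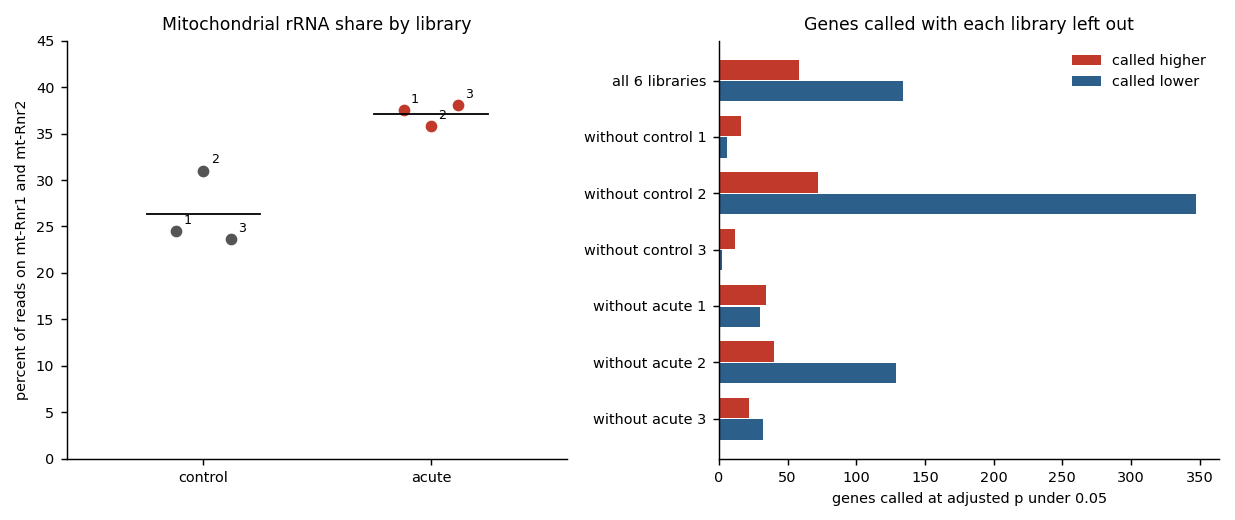
Left, percent of reads on mt-Rnr1 and mt-Rnr2 in each control and acute library (points, numbered by replicate; bars are group means). Right, number of genes called higher and lower with all 6 libraries and with each left out; the lower calls range from 2 without control library 3 to 347 without control library 2.

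The counts rested on single libraries. Without control library 1 the test called 16 genes higher and 6 lower, without control library 3 it called 12 and 2, and without control library 2 it called 72 and 347. Leaving out acute libraries 1, 2 and 3 gave 34 and 30, 40 and 129, and 22 and 32. The genes called with every one of the 6 libraries left out in turn were 12 of the 58 rises (Apln, Darc, Scgb3a1, Lrg1, Lcn2, Kit, Tnfsf8, Atp8b1, AA467197, Tmem173, Upp1 and Chst1) and 2 of the 134 falls (Slc16a1 and Rsad2). Every other called gene lost its call without control library 3. All of those but Tubb6, Tnfrsf9, Ecscr, Slc25a32, Usp46, Fbln2 and Rnf103 also lost it without control library 1. Tnfsf8, AA467197 and Chst1 had no control library over 1 CPM and passed the filter only through other stroke libraries. They could therefore be called only as rises. The same holds for the rises of Timp1, Inhbb, Tnfrsf9, Cadm3, Gm8210 and Ubash3b. With a filter over 5 CPM, 11 of the 58 rises were not tested. The 14 genes are given first, by what they do; those among them outside the naming rule were chosen after their values were seen.

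Apln, which encodes the secreted peptide apelin made by tip cells of sprouts, showed the largest rise of all called genes on the log2(CPM + 1) scale, on which genes with few reads are understated. Its CPM was 3.00, 2.00 and 2.02 in the control libraries and 39.6, 31.3 and 61.4 in the acute libraries. The log2 fold change was 3.71 ± 0.30 (SE, n = 3 and 3, adjusted p = 4.7e-05), and 4.05 without the rRNA genes. Every acute library stood far above every control library, and the mean was 10.5 CPM in the subacute and 1.79 CPM in the chronic stroke libraries.

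Darc (now named Ackr1) encodes the atypical receptor that binds many chemokines without signaling and is known as a mark of venules. It stood at 0.276, 2.39 and 3.59 CPM in the controls and at 21.7, 37.9 and 39.9 CPM in the acute libraries (log2 fold change 3.61 ± 0.40, adjusted p = 0.000499). Control library 1 held 8 reads of it, against 61 and 103 in the other two controls. Its subacute mean was 42.4 CPM and its chronic mean 5.54 CPM. The neighbouring gene Cadm3 shares up to 284 exon bases with it on the same strand in GENCODE vM21 and also rose, at 0.379, 0.783 and 0.977 CPM in the controls and 1.71, 3.24 and 4.86 CPM in the acute libraries, so reads of these genes may have been split or shared.

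Lrg1 and Lcn2 encode secreted proteins of the acute-phase response, Lrg1 a glycoprotein known to modify TGF-beta signaling in endothelium and Lcn2 an iron-siderophore carrier. Lrg1 stood at 0.792, 5.17 and 4.4 CPM in the controls and 26.1, 28.9 and 40.5 CPM in the acute libraries (3.04 ± 0.38, adjusted p = 0.00135). Lcn2 stood at 3.79, 23.7 and 17.3 CPM in the controls and 113, 53.6 and 156 CPM in the acute libraries (2.94 ± 0.48, adjusted p = 0.013). In both genes control library 1 was the lowest of the controls, and the spread of Lcn2 within each group was wide. The subacute means were 30.1 CPM for Lrg1 and 31.2 CPM for Lcn2, and the chronic means 2.41 and 21.1 CPM.

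Scgb3a1, which encodes a small secreted secretoglobin, was at 2.96, 6.58 and 4.82 CPM in the controls and at 41.4, 47.1 and 52.4 CPM in the acute libraries (3.09 ± 0.27, adjusted p = 5.44e-05). Its acute libraries lay closer together than those of Lcn2, and its subacute and chronic means were 13.3 and 3.50 CPM. Kit, the receptor for stem cell factor, was at 2.03, 3.17 and 3.14 CPM in the controls and 17.0, 19.5 and 28.3 CPM in the acute libraries (2.56 ± 0.21, adjusted p = 4.7e-05). Kit was higher still on average in the subacute libraries, at 32.6 CPM, and was at 3.77 CPM in the chronic ones. Tnfsf8, the ligand of the receptor CD30, had 0, 19 and 18 reads in the controls and stood at 5.31, 5.31 and 6.15 CPM in the acute libraries (2.22 ± 0.25, adjusted p = 0.000499).

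The other members of this group of 12 had low control values. Atp8b1, a phospholipid flippase, was at 2.48, 2.70 and 4.36 CPM in the controls and 8.81, 15.8 and 14.2 CPM in the acute libraries. Tmem173 (now Sting1), the sensor of cyclic dinucleotides, was at 2.93, 3.33 and 3.21 CPM against 10.6, 15.9 and 11.1 CPM. Upp1, uridine phosphorylase, was at 1.21, 0.979 and 1.08 CPM against 4.00, 6.24 and 7.25 CPM. Their log2 fold changes were 1.73, 1.68 and 1.68, with no overlap between groups, as in every called gene. Chst1, a sulfotransferase of carbohydrates, was at 0.31, 0.548 and 0.454 CPM against 2.91, 3.10 and 4.23 CPM. AA467197 rested on 7, 4 and 1 reads in the controls and reached 2.60, 2.27 and 3.39 CPM.

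Slc16a1, the monocarboxylate transporter that carries lactate and ketone bodies across the barrier, fell. Its CPM was 586, 454 and 461 in the controls and 234, 226 and 238 in the acute libraries. The log2 fold change was -1.09 ± 0.12 (adjusted p = 0.000499), and -0.87 without the rRNA genes. The acute libraries agreed closely and lay far below the lowest control, and the subacute and chronic means were 418 and 369 CPM. Rsad2, the interferon-induced antiviral enzyme viperin, stood at 128, 141 and 128 CPM in the controls and 38.4, 48.8 and 61.5 CPM in the acute libraries (-1.42 ± 0.20, adjusted p = 0.00437), the largest fall of all called genes on the log2(CPM + 1) scale, with a subacute mean of 143 CPM. Cmpk2, a nucleotide kinase also induced by interferon, is outside the naming rule and not on the interferon list. Its CPM fell from 50.4, 54.3 and 71.5 to 30.3, 35.3 and 27.1 (-0.90 ± 0.18, adjusted p = 0.0264). It was called in only 2 of the 6 fits with a library left out. Of the 24 interferon genes tested, Rsad2 was the only call, and their median was -0.08 against -0.11 over all genes.

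**Figure D2:**
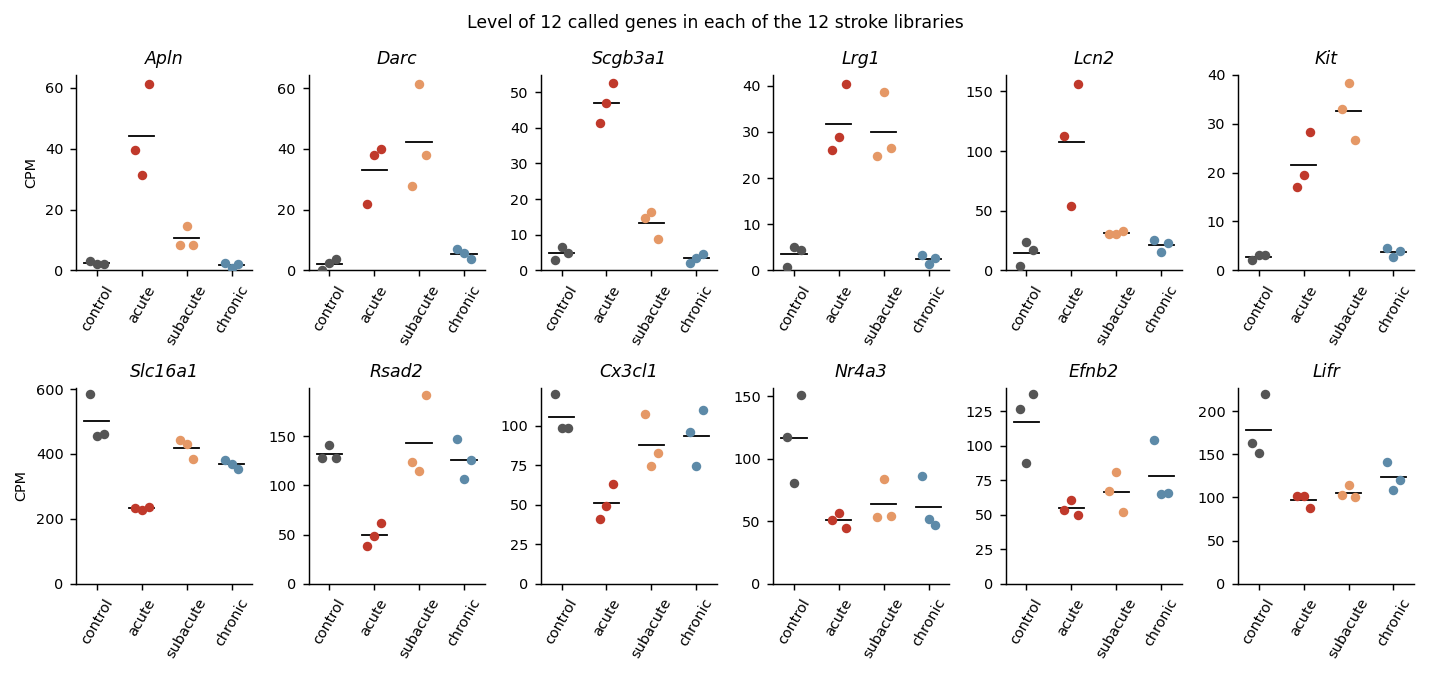
CPM (linear axis from 0) of 6 genes that rose and 6 that fell, in each of the 12 stroke libraries (points; bars are group means, n = 3). In the top row the acute libraries stand above the controls and Darc, Lrg1 and Kit stay high in the subacute libraries; in the bottom row the acute libraries stand below the controls, with Slc16a1 at 226 to 238 CPM.

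Low oxygen acts on genes through the hypoxia-inducible factors, which bind a short core in DNA. The promoters of 3 genes from RefSeq on GRCm38.p6 (250 bases before to 50 after the start) are shown with the hypoxia core (ACGTG on either strand) in capitals. They are Apln as the largest rise on the log2(CPM + 1) scale, Lrg1 as an acute-phase gene that rose, and Slc16a1 as a fall that, like Rsad2, held with every library left out.
Apln (chrX:48034804-48035103, minus strand): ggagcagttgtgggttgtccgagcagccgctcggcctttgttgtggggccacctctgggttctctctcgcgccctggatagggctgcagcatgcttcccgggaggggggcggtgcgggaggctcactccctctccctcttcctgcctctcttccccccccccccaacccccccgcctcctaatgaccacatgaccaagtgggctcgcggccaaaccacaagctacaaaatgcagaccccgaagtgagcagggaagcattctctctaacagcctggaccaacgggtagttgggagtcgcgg
Lrg1 (chr17:56121897-56122196, minus strand): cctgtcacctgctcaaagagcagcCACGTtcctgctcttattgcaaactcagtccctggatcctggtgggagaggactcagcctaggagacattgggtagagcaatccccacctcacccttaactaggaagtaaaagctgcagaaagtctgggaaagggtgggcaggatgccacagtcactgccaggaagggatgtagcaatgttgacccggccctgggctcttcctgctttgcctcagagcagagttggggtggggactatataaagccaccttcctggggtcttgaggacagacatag
Slc16a1 (chr3:104638414-104638713, plus strand): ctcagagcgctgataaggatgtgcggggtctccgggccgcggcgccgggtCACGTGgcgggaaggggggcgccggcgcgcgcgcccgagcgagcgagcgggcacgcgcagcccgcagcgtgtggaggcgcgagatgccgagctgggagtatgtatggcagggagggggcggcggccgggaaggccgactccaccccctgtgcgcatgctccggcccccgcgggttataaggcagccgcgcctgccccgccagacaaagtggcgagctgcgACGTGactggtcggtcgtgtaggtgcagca

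The Apln window held no core, the Lrg1 window 1 run of capitals and the Slc16a1 window 2, in the first of which the core reads on both strands (CACGTG). Of other windows searched, that of Timp1 held a core, and those of Lcn2, Serpina3n, Darc, Scgb3a1, Kit and Sele held none. Of 9623 tested genes with a promoter sequence, 29.2% held a core, against 8 of 44 genes that rose (18.2%), 34 of 110 that fell (30.9%) and 19 of 26 members of the hypoxia and glycolysis list (73.1%), of which no member was called. The STAT element (TTCNNNGAA, its own reverse complement), searched for after the values were seen, was in 6 of 44 genes that rose (13.6%), 7 of 110 that fell (6.36%), 3 of 18 members of the interleukin 6 list and 8.32% of all; it was in the Scgb3a1 and Sele windows and in none of Apln, Lrg1, Lcn2, Serpina3n, Timp1, Darc and Kit. The NF-kB site was in 7 of 44 genes that rose (15.9%), 9 of 110 that fell (8.18%), 8 of 14 members of the NF-kB list and 6.16% of all. The heat shock core (GAANNTTC or TTCNNGAA) was in 12 of 15 chaperones and 14% of all, and the metal response core (TGCACNC or TGCGCNC, either strand) in both Mt1 and Mt2 and in 40.7% of all. These are matches of letters, and binding was not measured.

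In the 34 gene lists, 610 distinct genes were tested, of which 14 rose and 22 fell, against 0.43% and 0.995% of all genes. All of these lists were chosen with earlier results of these data known. A larger share of calls in them, or in any 1 list, is therefore not independent evidence. At least 1 member was called in 20 lists and none in 14. With each library left out in turn, the number of list members called, 36 with all libraries, ranged from 6 to 63, with the fewest without control library 3 and the most without control library 2.

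**Figure D3:**
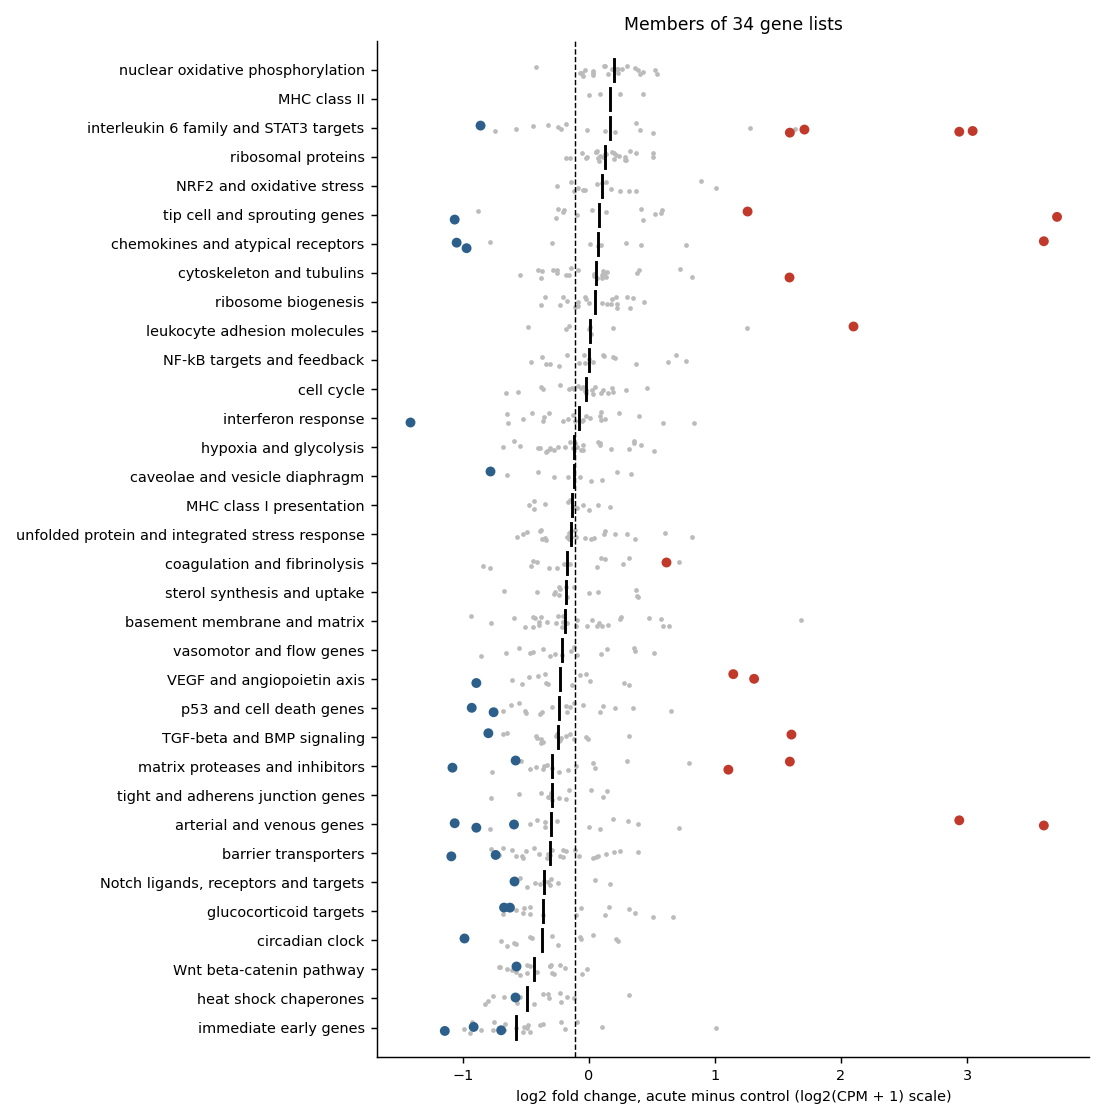
Log2 fold change (acute minus control) of each tested member of 34 lists, ordered by list median (black bar). Red points rose, blue points fell, grey points were not called, and the dashed line is the median of all genes, -0.11; most of the lists hold 0 to 3 called members.

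Genes of the interleukin 6 family and STAT3 targets, the core of the acute-phase response, held 4 rises and 1 fall among 20 tested members, with a list median log2 fold change of 0.17 (0.39 without the rRNA genes) against -0.11 over all genes. Beside Lrg1 and Lcn2, the protease inhibitors Serpina3n and Timp1 rose. Serpina3n was at 0.0689, 1.68 and 0.803 CPM in the controls and 5.82, 5.51 and 3.08 CPM in the acute libraries (1.71 ± 0.30, adjusted p = 0.0169), and Timp1 at 0.0344, 0.588 and 0.419 CPM against 1.44, 3.58 and 4.74 CPM (1.59 ± 0.33, adjusted p = 0.0339). The controls of these genes rested on few reads: 2, 43 and 23 for Serpina3n and 1, 15 and 12 for Timp1. Lifr, the receptor of leukemia inhibitory factor, fell from 164, 152 and 221 CPM to 101, 101 and 88.2 CPM (-0.86 ± 0.15, adjusted p = 0.0152). Socs3, the feedback inhibitor of STAT3 signaling, was not called, at 69.4, 48.4 and 67.6 CPM in the controls and 43.6, 70.8 and 71.7 CPM in the acute libraries (-0.01 ± 0.20). Without the rRNA genes the list held 8 rises and 1 fall.

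Among leukocyte adhesion molecules 1 of 9 tested members was called. Sele, E-selectin, on which leukocytes roll, rose from 0.241, 1.45 and 1.75 CPM to 4.5, 14.7 and 6.50 CPM (2.09 ± 0.44, adjusted p = 0.0335), with acute library 2 the highest. Selp, P-selectin, had 0, 0.157 and 0.524 CPM in the controls and 0.427, 2.89 and 3.34 CPM in the acute libraries, which overlapped (adjusted p = 0.122). The integrin ligands Icam1 and Vcam1, on which leukocytes arrest, overlapped between groups. Icam1 gave 0.19 ± 0.25, and Vcam1 was at 85.2, 201 and 152 CPM in the controls and 96.4, 151 and 178 CPM in the acute libraries.

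Among chemokines and atypical receptors, Darc rose and 2 of the 11 tested members fell. Cx3cl1, the membrane-bound chemokine fractalkine, fell from 120, 98.8 and 98.5 CPM to 41.0, 49.4 and 62.9 CPM (-1.05 ± 0.18, adjusted p = 0.0169). Cxcr7 (now Ackr3), the scavenging receptor of Cxcl12, fell from 151, 129 and 190 CPM to 68.3, 94.8 and 74.4 CPM (-0.97 ± 0.18, adjusted p = 0.0206). Neither gene's groups overlapped, as in every called gene, and the acute levels of Cx3cl1 lay well under the lowest control. Cxcl12 itself stood at 1878, 1221 and 1587 CPM in the controls and 926, 975 and 787 CPM in the acute libraries without passing the test (-0.79 ± 0.23, adjusted p = 0.0886). Ccl2, which draws monocytes, was low and overlapped, at 1.93, 1.92 and 1.95 CPM against 1.94, 4.48 and 6.79 CPM.

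Signals of vessel growth moved in different directions. Of 16 genes of the VEGF and angiopoietin axis, Angpt2 and Pgf rose and Vegfc fell. Angpt2, the antagonist of the receptor Tie2 that loosens vessels, was at 34.2, 29.5 and 24.4 CPM in the controls and 53.7, 62.3 and 84.1 CPM in the acute libraries (1.15 ± 0.21, adjusted p = 0.0204). Pgf, the ligand of Flt1, was at 2.93, 4.62 and 3.66 CPM against 12.8, 7.06 and 13.1 CPM (1.31 ± 0.25, adjusted p = 0.0227), and Vegfc, a ligand of lymphatic and sprouting endothelium, at 24.2, 17.6 and 28 CPM against 10.4, 11.7 and 13.7 CPM (-0.89 ± 0.19, adjusted p = 0.0362). All 3 separated without overlap, as did every called gene. The receptors did not pass the test: Flt1 stood at 5445, 4669 and 5554 CPM in the controls and 3057, 3630 and 3554 CPM in the acute libraries (-0.61 ± 0.19, adjusted p = 0.106), Kdr gave -0.35 ± 0.20 and Tek -0.33 ± 0.12. Vegfa was low, at 3.24, 2.08 and 3.84 CPM against 1.98, 2.07 and 2.39 CPM.

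Of 16 tip cell and sprouting genes, Apln and Trp53i11 rose and Efnb2 fell. Trp53i11 was at 5.61, 3.56 and 5.17 CPM in the controls and 8.07, 11.2 and 22.1 CPM in the acute libraries (1.26 ± 0.29, adjusted p = 0.049), with acute library 3 the highest. Efnb2, ephrin-B2 of arterial and sprouting endothelium, fell from 127, 87.7 and 138 CPM to 53.5, 60.9 and 50.1 CPM (-1.07 ± 0.21, adjusted p = 0.0264). Esm1, another tip gene, was not called (0.41 ± 0.31, adjusted p = 0.464), and neither was the apelin receptor Aplnr, at 2.65, 3.84 and 0.907 CPM against 4.34, 5.03 and 2.50 CPM.

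In the list of arterial and venous genes, the 2 rises of 18 members were Darc and Lcn2, both known from venules, and the 3 falls were Efnb2, Vegfc and Hey1, all known from arteries. The list was chosen with earlier results of these data known, so its direction is not independent evidence. Hey1, a target of Notch that acts in arterial identity, fell from 183, 228 and 200 CPM to 119, 133 and 152 CPM (-0.59 ± 0.14, adjusted p = 0.0492) but gave -0.37 with an adjusted p of 0.16 without the rRNA genes. Vwf, a venous and large-vessel gene, was at 286, 506 and 366 CPM in the controls and 643, 560 and 657 CPM in the acute libraries, with an adjusted p of 0.0873 (0.0238 without the rRNA genes). None of the other 12 Notch genes tested was called.

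Among proteases of the matrix and their inhibitors, 2 of 19 members rose and 2 fell. Adamts9, a secreted protease that cleaves proteoglycans, rose from 76.7, 82.5 and 86.6 CPM to 165, 214 and 158 CPM (1.11 ± 0.21, adjusted p = 0.0236). Mmp15, a membrane-bound metalloprotease, fell from 12.8, 7.56 and 12.2 CPM to 3.26, 5.75 and 4.72 CPM (-1.08 ± 0.22, adjusted p = 0.0293). Reck, a membrane anchor that inhibits metalloproteases and serves Wnt7 signaling in brain endothelium, fell from 261, 250 and 262 CPM to 155, 179 and 182 CPM (-0.58 ± 0.13, adjusted p = 0.0393), but gave -0.36 with an adjusted p of 0.0678 without the rRNA genes. Exons of Adamts9 overlap an antisense gene, A730049H05Rik, by up to 1215 bases, and whether counting used strand is not given in the sources used here. Mmp9 was at 0 to 0.103 CPM in the 6 control and acute libraries and was not detectable as different at this depth; its subacute libraries stood at 2.01, 13.2 and 13.8 CPM. Of 32 basement membrane and matrix genes none was called, though Sparc, at 1816, 1947 and 1682 CPM against 2528, 2583 and 3113 CPM, had an adjusted p of 0.0516 and was called without the rRNA genes (0.0188), as was Tnc (0.0438), which rested on 0, 0.157 and 0.0349 CPM in the controls.

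In TGF-beta and BMP signaling, Inhbb, the activin subunit beta B, rose and Tgfb2 fell among 20 members. Inhbb had 2, 8 and 1 reads in the controls and stood at 0.853, 2.31 and 5.69 CPM in the acute libraries (1.61 ± 0.37, adjusted p = 0.0482). Tgfb2 fell from 99.9, 83.1 and 110 CPM to 50.1, 63.2 and 53.4 CPM (-0.80 ± 0.15, adjusted p = 0.0197). In coagulation and fibrinolysis the only call of 16 was Anxa2, the annexin that assembles plasminogen and its activator, which rose from 96.3, 111 and 95.7 CPM to 150, 153 and 160 CPM (0.61 ± 0.11, adjusted p = 0.0169). Plat, the activator itself, was at 883, 829 and 895 CPM against 668, 649 and 641 CPM and was not called (-0.41 ± 0.14, adjusted p = 0.124).

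The genes of the barrier mostly did not pass the test. Of 29 barrier transporters, 2 fell, with 22 log2 fold changes below 0 and a median of -0.31, which was -0.09 without the rRNA genes, where the same 2 were called. Beside Slc16a1, the fall was of Slc19a3, the thiamine transporter, from 243, 236 and 229 CPM to 149, 131 and 144 CPM (-0.74 ± 0.13, adjusted p = 0.0163). Slc2a1, the glucose transporter, stood at 7284, 8164 and 6784 CPM in the controls and 6883, 6227 and 6108 CPM in the acute libraries (-0.21 ± 0.18). Slc6a6, the taurine transporter, at 2604, 1865 and 2262 CPM against 1152, 1343 and 1411 CPM, did not overlap between groups but missed the threshold (adjusted p = 0.0756), as did the efflux pump Abcb1a, at 1205, 1037 and 1282 CPM against 754, 889 and 790 CPM (adjusted p = 0.0795). Mfsd2a, the lipid carrier that keeps vesicle traffic low, overlapped between groups (0.05 ± 0.13).

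No call was made among 14 tight and adherens junction genes. Cldn5, the main claudin of the barrier, was at 430, 379 and 370 CPM in the controls and 267, 335 and 370 CPM in the acute libraries (-0.29 ± 0.13, adjusted p = 0.229). Ocln gave -0.18 ± 0.11 and Cdh5, the cadherin of endothelial contacts, -0.30 ± 0.16; without the rRNA genes Cldn5 gave -0.06, Ocln 0.04 and Cdh5 -0.07. All 20 Wnt beta-catenin genes had log2 fold changes below 0, with a median of -0.44 (-0.22 without the rRNA genes), but only Reck was called, and none without the rRNA genes. Lef1 and Axin2, readouts of the pathway, gave -0.58 ± 0.20 and -0.31 ± 0.18. Of 10 caveolar genes, Sdpr (now Cavin2), a coat protein of caveolae, fell from 692, 584 and 689 CPM to 401, 409 and 331 CPM (-0.78 ± 0.13, adjusted p = 0.0144). Plvap, the diaphragm protein that barrier endothelium lacks, had at most 6 reads in any of the 6 libraries and was not tested.

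Immediate early genes, which respond to stimuli within minutes and to the handling of tissue, had the lowest list median, -0.58 (-0.35 without the rRNA genes), with 23 of 25 log2 fold changes below 0. Nr4a3, Egr2 and Btg2 fell: Nr4a3, an orphan nuclear receptor, from 118, 80.7 and 152 CPM to 51.2, 57.0 and 44.3 CPM (-1.14 ± 0.25, adjusted p = 0.0401), Egr2 from 27.0, 21.4 and 36.3 CPM to 11.6, 16 and 15.2 CPM, and Btg2, an antiproliferative gene, from 865, 797 and 928 CPM to 557, 533 and 506 CPM. In all 3 genes control library 2 was the lowest control. Fos and Egr1 did not pass: Fos was at 1562, 1062 and 1600 CPM against 850, 1293 and 821 CPM, which overlap, and Egr1 at 2168, 1449 and 2580 CPM against 789, 1250 and 1048 CPM (adjusted p = 0.0648). Of the 25, Myc had the highest value, 1.01 ± 0.29, and was called higher without the rRNA genes (adjusted p = 0.0401).

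Heat shock chaperones had a median of -0.49 (-0.27 without the rRNA genes), and the cochaperone Dnajb1 was the only fall of 18, from 181, 197 and 250 CPM to 146, 124 and 143 CPM (-0.59 ± 0.14, adjusted p = 0.049; 0.125 without the rRNA genes). Without the rRNA genes the calls were a rise of Hspb8 (0.54) and a fall of Bag3 (-0.60). Glucocorticoid targets held 2 falls of 17, Tsc22d3, the leucine zipper GILZ, from 393, 373 and 369 CPM to 262, 237 and 235 CPM (-0.63 ± 0.13, adjusted p = 0.0316), and Klf9 (-0.67 ± 0.15, adjusted p = 0.049); without the rRNA genes Tsc22d3 was not called (0.0734), and the list held 1 fall and 2 rises, of Cebpd and Ctla2a (0.73 and 0.89). Of 20 p53 and cell death genes, Trp53inp1 and Sesn1 fell (-0.93 ± 0.18 and -0.76 ± 0.16), both stress-induced p53 targets, and without the rRNA genes Sesn1 was not called (adjusted p = 0.0856) and Mlkl, the effector of necroptosis, was higher (0.88). Of 14 clock genes, Arntl, which encodes the clock activator BMAL1, fell from 13.5, 8.42 and 18 CPM to 6.36, 5.03 and 6.35 CPM (-0.995 ± 0.22, adjusted p = 0.0373), and the time of day at sampling is not stated.

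Genes of hypoxia and glycolysis gave no call among 28, with a median of -0.12 (0.06 without the rRNA genes). Ldha, lactate dehydrogenase, was at 197, 255 and 174 CPM in the controls and 269, 276 and 345 CPM in the acute libraries (0.51 ± 0.15, adjusted p = 0.0881; 0.0392 without the rRNA genes), and Pkm2, pyruvate kinase, gave 0.36 ± 0.13 and was likewise called only without the rRNA genes (0.0325). Egln1 and P4ha1, oxygen-sensing and collagen hydroxylases, had values below 0, -0.55 ± 0.20 and -0.59 ± 0.18, and Adm, a hypoxia-responsive peptide, overlapped between groups. Nuclear genes of oxidative phosphorylation had 20 of 25 values above 0 and ribosomal proteins 21 of 26, with no call in either. Their medians were 0.20 and 0.13, against -0.11 over all genes. Without the rRNA genes 5 and 3 rose, and the medians were 0.41 and 0.35, against 0.09 over all genes. Among other genes, chosen after their values were seen, the respiratory chain subunits Ndufs8 and Cox7b rose (0.66 ± 0.14 and 0.60 ± 0.13, adjusted p = 0.03 and 0.0367).

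No member was called among 19 NF-kB targets, 12 MHC class I genes, 4 MHC class II genes, 15 NRF2 genes, 24 cell cycle genes, 26 genes of the unfolded protein response, 17 vasomotor genes, 22 genes of ribosome biogenesis or 15 of sterol synthesis, and Rsad2 was the only call of 24 interferon genes. Several of these lists held rises without the rRNA genes, named here after their values were seen: Xbp1 and Asns of the unfolded protein response (0.59 and 0.83), Bop1 and Mybbp1a of ribosome biogenesis (0.66 and 0.57), Bcl3 of the NF-kB targets (0.86), Ramp2 of the vasomotor genes (0.59) and Ifitm1 of the interferon genes (1.07). Hmox1, heme oxygenase, was at 11.7, 14.2 and 15.8 CPM in the controls and 22.2, 17.1 and 48.0 CPM in the acute libraries, with an adjusted p of 0.0939 (0.0422 without the rRNA genes). The metallothioneins Mt1 and Mt2, which bind zinc, overlapped between groups (-0.47 ± 0.22 and -0.07 ± 0.24). Of 26 cytoskeletal genes, Tubb6, a beta-tubulin, rose from 29.2, 21.2 and 23.2 CPM to 55.6, 66.8 and 112 CPM (1.58 ± 0.25, adjusted p = 0.0129); reads of tubulin paralogs may be split between genes.

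Genes outside the lists were named as the largest changes among those of upper-half expression. Tmem176a and Tmem176b, neighbouring membrane proteins of immune cells and others, rose: Tmem176a from 7.44, 17.2 and 14.6 CPM to 31.0, 31.6 and 40.3 CPM (1.39 ± 0.26, adjusted p = 0.0204) and Tmem176b from 34.7, 41.9 and 43.1 CPM to 73.5, 76.1 and 105 CPM. Apod, apolipoprotein D, rose from 134, 192 and 116 CPM to 315, 279 and 356 CPM (1.12 ± 0.22, adjusted p = 0.0264), and its subacute and chronic means, 384 and 305 CPM, were also above the controls. Ecscr, an endothelial surface protein, rose from 27.2, 24.1 and 26.1 CPM to 45.6, 52.6 and 75.0 CPM (1.10 ± 0.17, adjusted p = 0.0108), and Flot1, flotillin of membrane rafts, from 26.4, 32.6 and 20.7 CPM to 45.5, 47.5 and 51.0 CPM. The naming rule required acute and control libraries that do not overlap, which held for 27.1% of all genes tested, so their separation adds no support.

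Among the largest falls of that kind were Rnf103, a ubiquitin ligase of the endoplasmic reticulum, from 204, 200 and 245 CPM to 106, 87.5 and 91.8 CPM (-1.17 ± 0.17, adjusted p = 0.00529), and Tmcc3, from 420, 279 and 310 CPM to 121, 149 and 178 CPM (-1.16 ± 0.20, adjusted p = 0.0169). Prdm16, a transcription factor known to maintain arterial endothelium, fell from 74.6, 54.4 and 70.0 CPM to 27.6, 30.9 and 29.4 CPM (-1.14 ± 0.24, adjusted p = 0.0356). Casq2, Asb4, Gca and Fam117b fell by 1.15, 1.12, 1.11 and 1.10 on the log2 scale; exons of Gca and Fam117b overlap the antisense genes Kcnh7 and Ica1l by up to 696 and 380 bases, and Asb4 was not called without the rRNA genes (adjusted p = 0.0581).

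**Figure D4:**
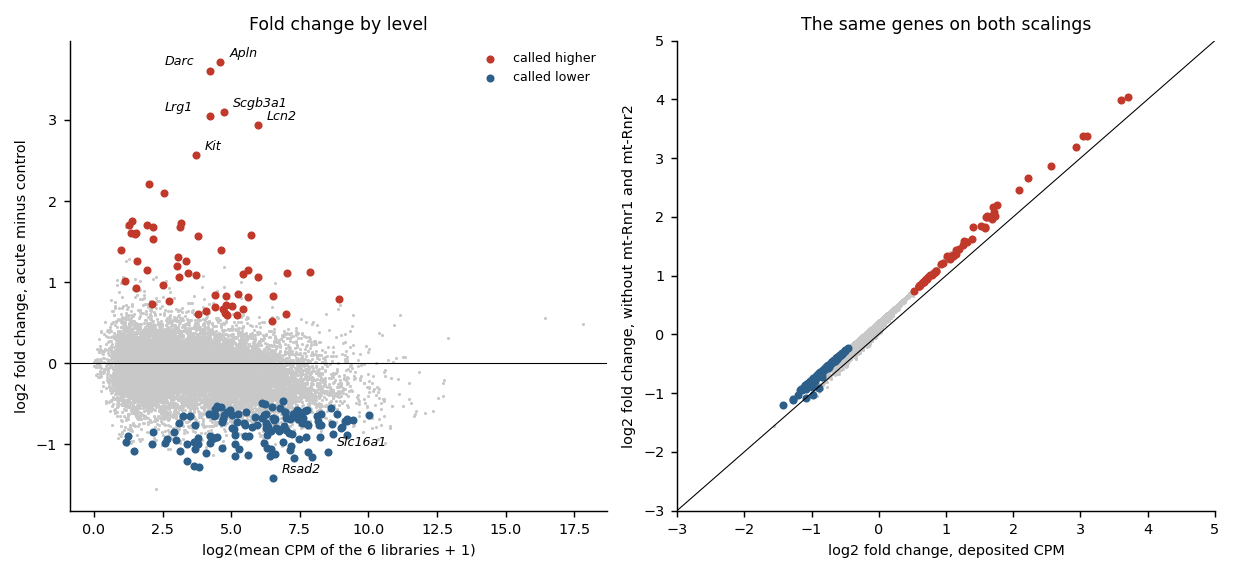
Left, log2 fold change (acute minus control) against log2(mean CPM + 1) of the 6 libraries for 13474 genes, with 58 called higher in red and 134 called lower in blue. Right, the log2 fold change without mt-Rnr1 and mt-Rnr2 against that of the deposited CPM. Most points lie above the line of equality by about the shift of 0.196. Low genes could be displaced more or less than that, as with Tnfsf8 (2.22 to 2.66) and 9430037G07Rik (-0.895 to -0.911).

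Markers of the sorted cells and of others were read beside these results. Endothelial markers summed to 11500 to 12893 CPM in the controls and 9207 to 10387 CPM in the acute libraries, with no member of 16 called and a median of -0.20 (0.03 without the rRNA genes, where 2 were called higher). Mural cell markers were present in all 6 libraries, at 4097 to 6073 CPM in the controls and 2654 to 6133 CPM in the acute libraries; all 15 tested members had values below 0 (median -0.47, and -0.27 without the rRNA genes) and none was called. Neutrophil markers summed to 1.27 to 3.53 CPM and 5.2 to 10.8 CPM, without overlap, and S100a9, the member that was tested, gave 1.17 ± 0.31 (adjusted p = 0.0684, and 0.0451 without the rRNA genes). The other neutrophil markers fell short of the filter and did not all go the same way. S100a8 was at 0.241, 0.157 and 0.314 CPM in the controls and 1.40, 0.620 and 1.90 CPM in the acute libraries. Ngp was at 0.241, 0.392 and 1.01 CPM against 0.194, 0.241 and 0.0863 CPM. In none of the marker lists of fibroblasts, astrocytes, neurons, oligodendrocytes, microglia and macrophages, monocytes, red blood cells, platelets or choroid plexus was a member called, and no lymphocyte marker was tested. The part of the mural and neutrophil signals in the falls and rises above was not tested, and in bulk libraries fewer cells of a type and less RNA per cell cannot be told apart.

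Epilepsy and traumatic brain injury (TBI), the other brain models of the series, have acute and control groups of 3 libraries each with controls of their own. In TBI, 30 of the 58 genes that rose in stroke were called higher (2.74% of all genes) and 0 lower, and 31 of the 134 that fell were called lower (1.68%) and 0 higher. In epilepsy, 26 of the 58 were higher (11.3%) and 11 lower, and 59 of the 134 were lower (31.1%) and 21 higher. Called higher in all 3 models were 21 of the 58, among them Apln, Darc, Lrg1, Kit, Tnfsf8, Sele, Angpt2, Pgf, Adamts9, Timp1 and Tubb6, where 1.33% of all genes were called higher in both epilepsy and TBI. Called lower in all 3 were 25 of the 134, among them Slc16a1, Slc19a3, Lifr, Reck, Tgfb2 and Btg2 (1.23%). In neither other model were 12 of the 58 and 50 of the 134 called, Tmem176a and Rsad2 among them. The share of all genes called in neither model was not computed, so these counts do not mark genes as particular to stroke.

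**Figure D5:**
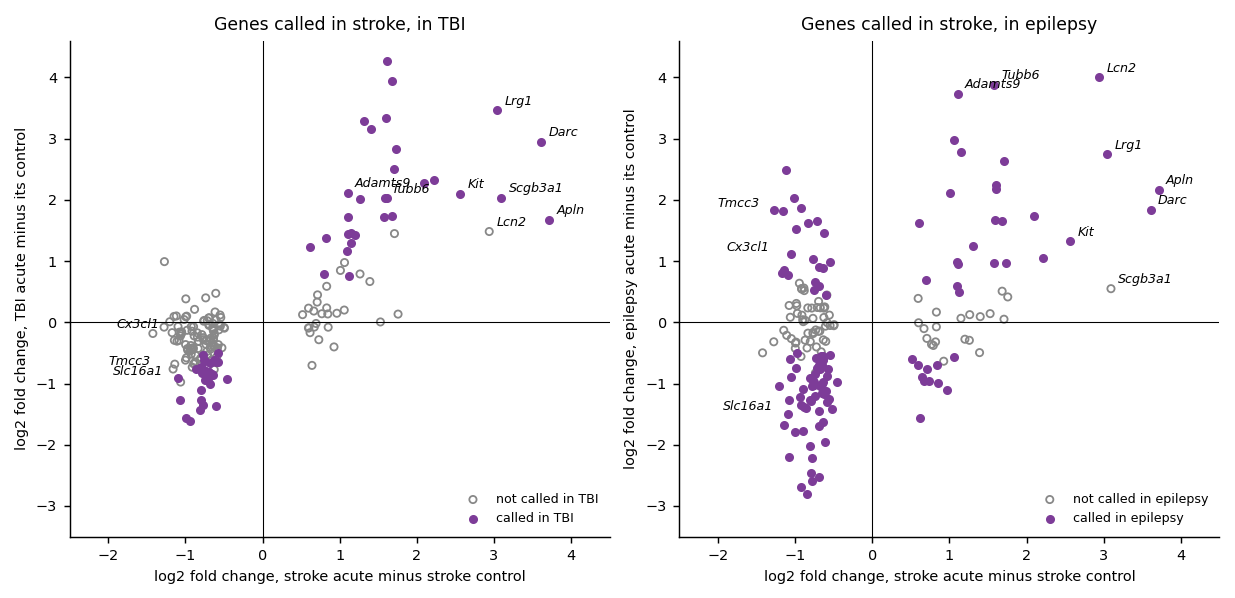
Log2 fold change in TBI (left) and epilepsy (right) against that in stroke, acute minus the model's own control, for the 192 genes called in stroke; filled points were also called in the other model. In TBI the filled points lie on the same side of 0 as in stroke, while 9 of the 58 genes higher in stroke and 20 of the 134 lower, none of them called in TBI, lie on the other side; in epilepsy Cx3cl1 and Tmcc3 were higher.

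Lrg1 gave a log2 fold change of 3.04 in stroke, 2.75 ± 0.42 in epilepsy and 3.46 ± 0.42 in TBI, and Lcn2 2.94, 4.01 ± 0.54 and 1.48 ± 0.54, the last of which was not called (adjusted p = 0.143). Neither gene was among those whose stroke effect passed the test against both other models. Cx3cl1, which fell in stroke, was higher in epilepsy (1.11 ± 0.22, adjusted p = 0.000485) and not called in TBI (-0.16 ± 0.22). Tmcc3 was likewise higher in epilepsy (1.82). When the difference itself was tested, the stroke effect was above that of epilepsy in 2541 genes (18.1% of 14066) and below in 1391 (9.89%), but above that of TBI in only 4 (0.0284%) and below in 31 (0.22%). These counts are on the deposited CPM. The mitochondrial rRNA share, larger at the acute stage in stroke, was smaller in epilepsy. It was 31.2, 27.6 and 27.2% in epilepsy controls and 24.2, 24.1 and 22.3% in epilepsy acute libraries. Without the rRNA genes, stroke minus epilepsy went from -3.09 to -2.77 for Emp1 and from 2.00 to 2.33 for Tfrc. The differences from epilepsy therefore depend on the scaling. The genes whose stroke effect was above that of both other models numbered 4 (0.0284%) and those below both 12 (0.0853%), and without the rRNA genes 9 and 2. None of these 16 genes was called with more than 3 of the 6 stroke libraries left out in turn.

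The 16 genes were mostly genes that moved in the other models. Emp1, a membrane protein of growing cells, was at 190, 164 and 223 CPM in stroke controls and 112, 171 and 195 CPM at the acute stage, while its mean rose from 119 to 829 CPM in epilepsy and from 83.0 to 319 CPM in TBI (stroke minus TBI -2.23 ± 0.40, adjusted p = 0.0334). Cd93, a C-type lectin of angiogenic endothelium, and Itga6, a laminin receptor, behaved likewise, with stroke minus TBI of -1.34 ± 0.20 and -1.06 ± 0.18. Tfrc, the transferrin receptor that carries iron across the barrier, stood at 578, 631 and 557 CPM in stroke controls and 572, 763 and 706 CPM at the acute stage, and fell in the other models, from means of 1102 to 317 CPM in epilepsy and 1927 to 888 CPM in TBI (stroke minus TBI 1.36 ± 0.25, adjusted p = 0.0359). The control levels of Tfrc themselves differed between models. The same holds for Lpin2, a phosphatidate phosphatase that fell in stroke from 92.9, 97.9 and 93.5 CPM to 54.9, 51.5 and 37.6 CPM: its control means were 35.9 CPM in epilepsy and 36.8 CPM in TBI, so its stroke acute level was nearer than its stroke control level to those of the other models.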

How the data were processed

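RNA-seq of sorted mouse brain endothelial cells was analysed from the authors' deposited table, whose CPM columns hold reads scaled to sum to 1000000 per library, per the file headers and values. Subread, featureCounts, TopHat2 2.0.13 and the build mm9 appear, without roles, in the submitters' processing notes. The table's log2 columns, the authors' deposited log2 fold changes, were not used. Of 1374704 nonzero CPM values, 100% were whole multiples of the library's smallest value within 0.001, so reads were recovered; because the unit is CPM, they served only depth and an alternative in edgeR 4.0.16. Groups were taken from sample titles. CPM was tested as log2(CPM + 1) with R 4.3.3 and limma 3.58.1 (trend on), in 1 fit of all 12 stroke libraries. Genes needed over 1 CPM in at least 3 of them, and p-values were adjusted over all genes (Benjamini-Hochberg, threshold 0.05). Fold changes on this scale understate changes of low genes. Stroke effects were compared with epilepsy and TBI effects by interaction contrasts in 1 fit of 18 libraries. Values after ± are standard errors of the limma fits, from the spread between libraries within groups. Floors and recovered reads cover counting error only. Scripts were tested on simulated data.

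The members and the 34 gene and 13 marker lists were chosen with earlier results of these data known. Named genes were the 10 largest rises and 10 largest falls of upper-half expression without overlap, the 4 members per list of lowest adjusted p, a panel of 36, and up to 5 per direction that differed from both other models; a selection is printed. Old symbols were matched to GENCODE vM21 by identifier, and promoters, on GRCm38.p6, by symbol for 9623 of 13474 genes. No mm9 coordinate was used. Alternatives are given in the closing section.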

Additional observations from a re-analysis of the deposited data

Results flagged for a closer look

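The acute stroke effect differed from the effects in both epilepsy and TBI, by interaction contrasts in limma with each model against its own controls, in 4 genes above and 12 below. The smaller of each gene's 2 differences was 1.36 for Tfrc, 0.84 for Aldh2 and 0.63 for Gpcpd1 among those above, and -2.23 for Emp1, -1.34 for Cd93, -1.09 for Slc23a2, -1.08 for Lpin2 and -1.06 for Itga6 among those below, in log2 units. Aldh2, a mitochondrial aldehyde dehydrogenase, was at 54.5, 55.2 and 57.2 CPM in stroke controls and 73.8, 69.2 and 86.3 CPM at the acute stage, and was not called in stroke itself (adjusted p = 0.171). The fourth gene above both, Gm8210, stood at 0.241, 0.157 and 0.14 CPM in the stroke controls and 2.56, 3.38 and 3.05 CPM at the acute stage, while the control means of epilepsy and TBI were 2.46 and 3.22 CPM. Its subacute stroke libraries were at 3.58, 0.206 and 0.314 CPM, so that libraries 2 and 3 of that group were as low as the stroke controls. Without mt-Rnr1 and mt-Rnr2, stroke minus TBI of Slc23a2, Lpin2 and Itga6 no longer passed (adjusted p = 0.0696, 0.0523 and 0.0709), and those of Emp1, Cd93, Tfrc, Aldh2 and Gpcpd1 did.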

How the results depend on the processing

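No gene named in the report changed direction while called under an alternative. Counts of genes called higher, lower, and among list members, 58, 134 and 36 in the report, moved with the library left out, the scaling and the filter. Leaving out mt-Rnr1 and mt-Rnr2 gave 312 higher and 69 list members, quantile normalization 156 and 55, and edgeR on recovered reads 126 higher. With no filter on low values 12, 11 and 6 were called, where more genes were tested. A filter over 5 CPM gave 206 lower, and limma without a trend 38, 52 and 20. The median log2 fold change of all genes, -0.11, was 0.088 without the rRNA genes, -0.0026 after quantile normalization, -0.016 with no filter and 0.012 in edgeR. Leaving out 1 library gave 12 to 72 higher, 2 to 347 lower and 6 to 63 list members; together with leaving out the rRNA genes, chosen after seeing the data, it gave 43, 405 and 39 higher without control libraries 1 to 3 and 102, 275 and 111 without acute libraries 1 to 3, and 9, 143 and 5 and then 19, 150 and 44 lower. The labels do not say whether replicate numbers pair the samples. Deviations from the group means correlated at -0.13, -0.26 and -0.18 between acute and control libraries of the same number. Libraries of different numbers were not compared in this way, so pairing stays unknown. A replicate block gave 53 higher and 89 lower.

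Genes with a stroke effect above both other models, 4 in the report, numbered 9 without the rRNA genes, 8 after quantile normalization, 0 with no filter, 1 with a pseudocount of 0.1, 1 without a trend, 0 with a replicate block and 0 to 2 with a library left out. Those below both, 12 in the report, numbered 2, 2, 6, 5, 4 and 3, and 0 to 18. Counts of 0 came from limma interaction contrasts at this sample size. The cause of these moves was not tested. With 3 libraries a group and 3 reads at 0.0863 to 0.118 CPM, changes between acute and control of genes near 0 CPM in both, such as Mmp9 and Plvap, were not detectable.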
